A study of Rattus norvegicus with 6 samples.

Results

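The phagocyte NADPH oxidase was measured in granulation tissue, which fills a wound as it heals, through 6 genes: Cybb, Cyba, Ncf1, Ncf4 and Rac2 of the phagocyte enzyme and Nox4, a related oxidase of non-phagocytic cells. The members were chosen with earlier results of these data known, and their probes were taken by gene symbol from the platform annotation. Of 13336 named genes on the array 6 are members, each with 1 probe. The tissue had grown into cellulose implants that carried a coating of hydroxyapatite, the mineral of bone, and had been placed subcutaneously in 10-week-old Sprague-Dawley rats. Rats 6, 4 and 7 gave up their implants after 72 hours (day 3), and rats 1, 2 and 3 after 24 hours (day 1). Each rat gave 1 implant and 1 single-colour Illumina bead array, so n = 3 at each day, and no rat was sampled at both days. The number of arrays limits the precision.

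In neutrophils and macrophages this enzyme moves electrons from NADPH across the membrane to oxygen and so makes superoxide, the starting point of the respiratory burst that kills ingested microbes. Its catalytic core is a membrane pair, gp91phox (Cybb) and p22phox (Cyba), which is silent until cytosolic subunits such as p47phox (Ncf1) and p40phox (Ncf4), and a Rac GTPase join it. Loss of Cybb, Cyba, Ncf1 or Ncf4 function underlies chronic granulomatous disease in humans.

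Of the 5 phagocyte subunit genes, 4 fell at day 3: Ncf4 fell 3.10-fold, Ncf1 2.73-fold, Cybb 2.46-fold and Rac2 2.40-fold. Cyba, the partner that phagocytes share with many other cells, did not pass the test, and Nox4 was too dim on these arrays to be tested. A probe was tested when it lay above its array's median on at least 3 of the 6 arrays, and it was called when limma's Benjamini-Hochberg adjusted p was under 0.05. Lower calls were made for 4 of the 5 tested members, beside 15.2% of the 11591 tested probes, and higher calls for 0 of the 5, beside 16.7% of probes, or 31.9% in both directions. These shares are given as context only, since the members were chosen with earlier results known. All day 3 rats lay below all day 1 rats for the same 4 members, beside 25.6% of tested probes. The background count of called probes, 3694 in all, depended on the rats: it was 2338, 2016, 2427 and 2093 without rats 1, 6, 4 and 7 in turn, and each of the 4 members was called lower in each of the 6 fits that left out 1 rat. The plot of signals by rat shows every array for each member.

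**Figure D1:**
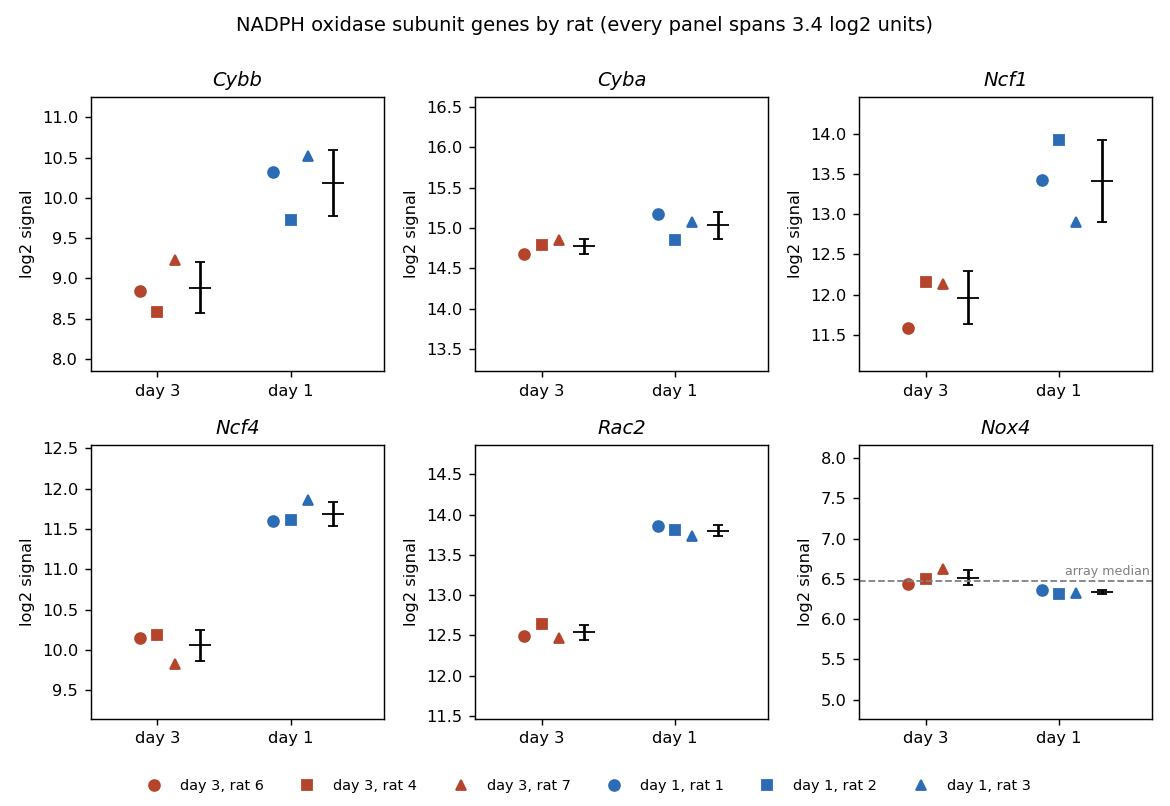
Log2 signal of the 6 members on each array (y axis), with day 3 rats left of day 1 rats and, beside them, the mean with its SD (n = 3). All panels have the same height in log2 units; Cybb, Ncf1, Ncf4 and Rac2 have every day 3 rat below every day 1 rat, Cyba overlaps, and Nox4 lies near the array median of 6.47, drawn as a dashed line.

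Of the 2 genes of the membrane core, 1 passed the test. Cybb, which encodes the chain that carries the electrons, had normalized signals of 476.3, 399.4 and 612.7 intensity units in day 3 rats 6, 4 and 7, against 1297, 860.6 and 1478 units in day 1 rats 1, 2 and 3. The brightest day 3 array thus lay below the dimmest day 1 array. On the log2 scale Cybb averaged 8.89 ± 0.32 at day 3 and 10.19 ± 0.41 at day 1 (SD, n = 3), a change of -1.30 ± 0.248 (SE; limma adjusted p = 0.0090, 95% interval -1.89 to -0.72). Its mean intensity at day 3 was 40.9% of that at day 1.

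Cyba encodes the small chain that stabilises gp91phox and gives the cytosolic subunits a docking site. It had 26145, 28191 and 29653 units in day 3 rats 6, 4 and 7, against 36949, 29522 and 34404 units in day 1 rats 1, 2 and 3. Day 3 rat 7 was slightly above day 1 rat 2, so the days overlapped. The change was -0.26 ± 0.128 on the log2 scale (SE; limma adjusted p = 0.163), with a 95% interval of -0.56 to 0.04. Cyba passed as lower with array weights (change -0.36, adjusted p = 0.0098) and with a further cyclic loess normalization (change -0.42, adjusted p = 0.0393). Its probe was among the brightest of all, with at most 0.44% of probes brighter on any array and a signal of 57.6% to 81.5% of the array's maximum. Whether brightness held down its change was not tested; Cebpb, whose log2 signal was 14.12 ± 0.30 at day 3 and 15.11 ± 0.28 at day 1 (SD, n = 3), fell by 0.99 (limma adjusted p = 0.0123).

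Promoter windows of 4 members were matched by symbol in the RefSeq table (build GRCr8), each from 250 bases before to 50 bases after the annotated gene start: Cybb, Cyba, Ncf1 and Nox4. The windows of Cybb, Ncf1 and Cyba are printed because the first pair fell at day 3 and the last did not pass the test. They were searched on both strands for GAGGAA and for GGAAGT, 2 overlapping forms of the core bound by Spi1 (PU.1), a transcription factor of myeloid cells that is known to act on Cybb. Capitals mark a match, and each sequence runs 5′ to 3′ on the gene's strand. The Cybb window is chrX:16065016-16065315 (minus strand), the Ncf1 window chr12:28121635-28121934 (plus strand) and the Cyba window chr19:67404165-67404464 (minus strand).
Cybb: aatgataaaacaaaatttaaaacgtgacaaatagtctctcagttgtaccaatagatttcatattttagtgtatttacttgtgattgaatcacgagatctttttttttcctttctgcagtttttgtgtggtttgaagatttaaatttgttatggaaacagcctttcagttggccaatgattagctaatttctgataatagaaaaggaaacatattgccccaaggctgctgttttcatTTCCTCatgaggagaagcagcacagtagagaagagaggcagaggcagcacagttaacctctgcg
Ncf1: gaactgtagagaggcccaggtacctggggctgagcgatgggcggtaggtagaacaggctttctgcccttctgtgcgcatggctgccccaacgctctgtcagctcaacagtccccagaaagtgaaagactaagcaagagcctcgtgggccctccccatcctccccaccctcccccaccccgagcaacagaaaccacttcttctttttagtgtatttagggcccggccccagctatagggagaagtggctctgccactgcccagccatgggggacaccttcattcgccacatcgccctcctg
Cyba: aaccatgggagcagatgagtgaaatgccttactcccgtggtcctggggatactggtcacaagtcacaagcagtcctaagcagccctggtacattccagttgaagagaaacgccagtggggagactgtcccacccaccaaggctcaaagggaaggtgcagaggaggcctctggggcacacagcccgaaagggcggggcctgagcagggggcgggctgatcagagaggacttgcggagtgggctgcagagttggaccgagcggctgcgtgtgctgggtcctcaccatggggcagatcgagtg
The Cybb window held 1 match, GAGGAA on the strand opposite the gene, its first printed base 14 bases before the gene start. The Ncf1, Cyba and Nox4 windows held 0 matches to either form, which says only that these letters are not in these windows. Of all 33469 windows in the table, 27.6% held GAGGAA and 22.6% held GGAAGT. The Cybb window was the poorest in G and C, at 35.7%, against 59.7% for Ncf1, 61.0% for Cyba and 73.0% for Nox4.

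Both genes of cytosolic subunits fell. Ncf1 encodes the organiser that, once phosphorylated, binds p22phox and carries the complex to the membrane. It had 3085, 4605 and 4525 units in day 3 rats 6, 4 and 7, against 10973, 15514 and 7649 units in day 1 rats 1, 2 and 3. The days did not overlap, but Ncf1 had the widest spread of the 6 members, with a range of 1.02 log2 units among the day 1 rats. It averaged 11.96 ± 0.33 at day 3 and 13.41 ± 0.51 at day 1 on the log2 scale (SD, n = 3; change -1.45 ± 0.282 SE, limma adjusted p = 0.0098).

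Ncf4 encodes a subunit that binds a lipid of the phagosome membrane and supports superoxide production there. It had 1151, 1182 and 925.9 units in day 3 rats 6, 4 and 7, against 3110, 3142 and 3745 units in day 1 rats 1, 2 and 3. A gap of 1.41 log2 units separated the days, the widest of the 6 members. The change was -1.63 ± 0.146 (SE; limma adjusted p = 8.49e-04), and 1.85% of tested probes fell further.

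Rac2 is the Rac GTPase of blood cells, which in its GTP-bound form completes the assembled enzyme in neutrophils and also directs actin. It had 5789, 6432 and 5700 units in day 3 rats 6, 4 and 7, against 14917, 14356 and 13614 units in day 1 rats 1, 2 and 3. The rats of 1 day lay close together, within 0.17 log2 units at day 3 and 0.13 at day 1. The change was -1.26 ± 0.110 (SE; limma adjusted p = 7.84e-04).

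Nox4 encodes an oxidase that also uses p22phox, needs no cytosolic subunit and is known from fibroblasts, endothelium and kidney. It had 101.7, 105.5 and 113.7 units in day 3 rats 6, 4 and 7, against 97.6, 94.7 and 95.5 units in day 1 rats 1, 2 and 3. These signals lay on either side of the array median of 104.0 units, with 2 day 3 arrays and 0 day 1 arrays above it, so Nox4 missed the filter and no fold is given. Every day 3 rat was above every day 1 rat, as for 15.1% of all probes on the array. With no filter the difference of 0.18 log2 units had a limma adjusted p of 0.201. A level this near the median leaves a change of Nox4 not detectable here.

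**Figure D2:**
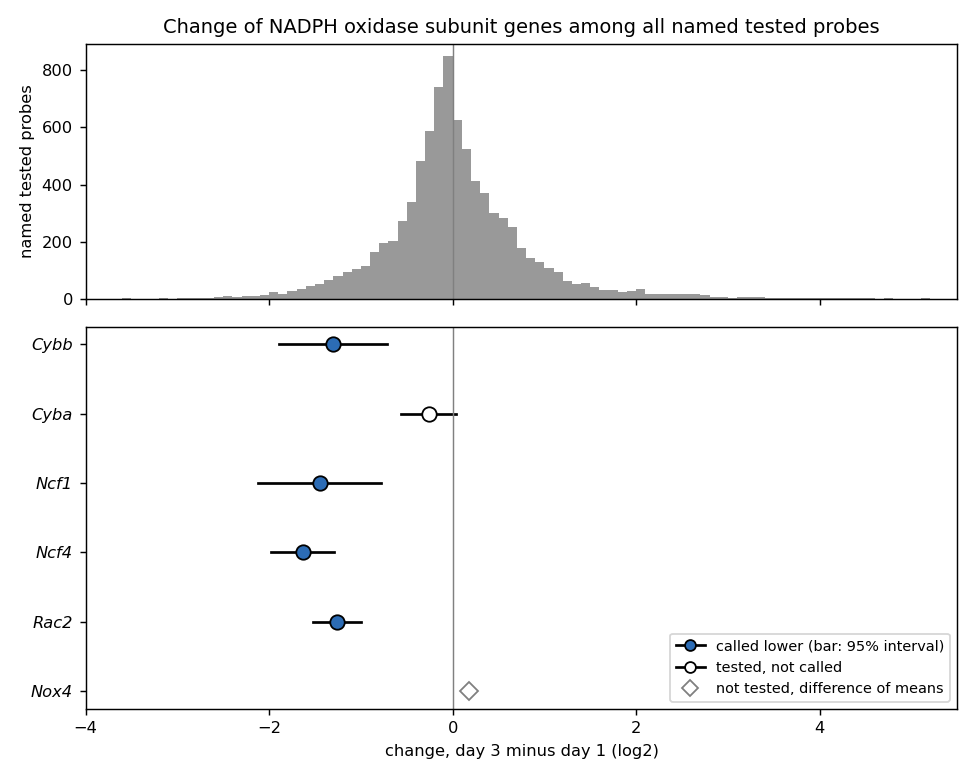
Change of each member, day 3 minus day 1 on the log2 scale (x axis), under a histogram of the same change over all named tested probes (y axis: number of probes). Bars are 95% intervals; Cybb, Ncf1, Ncf4 and Rac2 lie between -1.63 and -1.26 with intervals below 0, the interval of Cyba reaches 0.04, and Nox4 is the untested difference of means.

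The members were also set against each other within arrays, since a ratio of 2 probes on 1 array shows unequal change. The 10 pairs of tested members were compared by an exact two-sided permutation test, whose smallest possible p with 3 rats at each day is 0.1, so no pair could pass 0.05. The changes of Ncf4, Ncf1, Cybb and Rac2 lay below that of Cyba by 1.37, 1.19, 1.04 and 1.00 log2 units, and in each of these 4 pairs the ratios of the 2 days did not overlap (exact permutation p = 0.1). The change of Ncf4 lay 0.37 log2 units below that of Rac2, again without overlap (exact permutation p = 0.1). In the other 5 pairs the days overlapped, with exact permutation p between 0.5 and 0.8. Within a day the members did not follow 1 order of rats: among the day 1 rats, rat 2 had the lowest Cybb and the highest Ncf1, and rat 3 the highest Cybb and the lowest Ncf1.

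Leukocyte marker genes fell as well. Of 13 tested pan-leukocyte genes 10 fell and 0 rose, with a median change of -1.11, beside -0.05 over all tested probes. Ptprc, the common leukocyte antigen CD45, fell by 2.19 log2 units and Cd53, a leukocyte tetraspanin, fell by 1.86. Cd53 had limma adjusted p = 0.022, and 0.0554, 0.0767 and 0.0663 without rats 1, 6 and 4 in turn. The summed intensity of the 13 genes ran from 85307 to 95116 units at day 3 and from 130931 to 155298 units at day 1. Signals on normalized arrays are relative. In whole tissue, fewer leukocytes, less RNA per leukocyte and a smaller leukocyte share of the RNA beside other cells cannot be told apart.

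Relative to the mean log2 signal of these 13 genes on the same array, the change was -0.54 for Ncf4, -0.35 for Ncf1, -0.20 for Cybb and -0.16 for Rac2, and the days overlapped for each (exact permutation p = 0.2, 0.3, 0.6 and 0.3). These 4 values depended on single rats: without 1 rat they ran from -0.67 to -0.34 for Ncf4, -0.50 to -0.20 for Ncf1, -0.53 to 0.07 for Cybb and -0.26 to -0.08 for Rac2. Cybb was above 0 only without day 1 rat 3, and exact p reached 0.1, the smallest possible there, for Ncf1 without day 1 rat 3 and for Ncf4 without day 1 rat 2. The overlap for Ncf4 was slight, with -0.699 in day 3 rat 6 and -0.703 in day 1 rat 2. With no background correction the days did not overlap for Ncf4 (change -0.54, exact permutation p = 0.1). Cyba was 0.84 log2 units higher relative to them at day 3, with no overlap (exact permutation p = 0.1, the smallest possible). These are differences between changes, not levels, and the share of leukocytes in each member's fall was not tested beyond them.

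**Figure D3:**
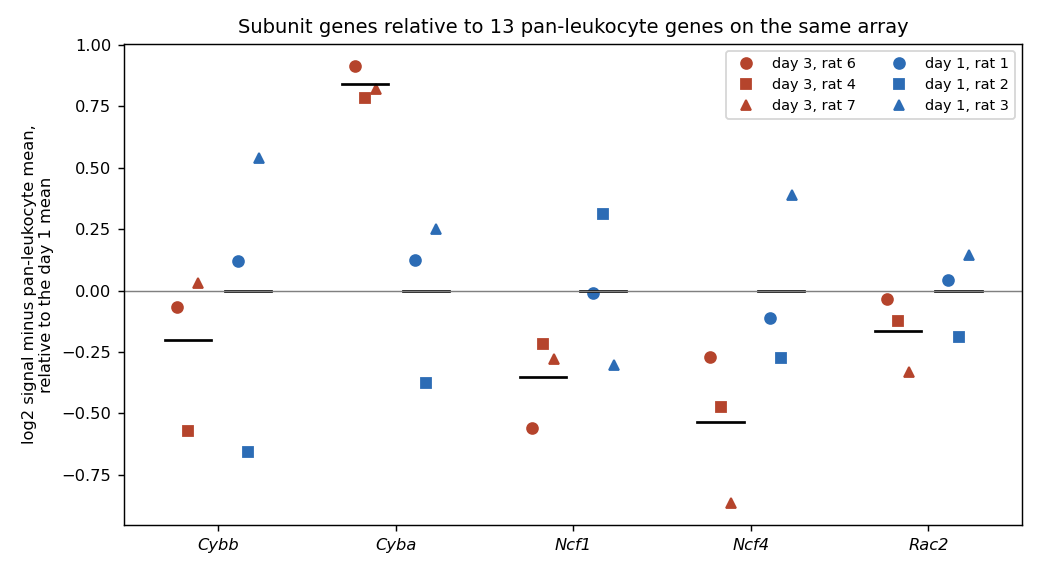
Log2 signal of each tested member minus the mean of 13 pan-leukocyte genes on the same array (y axis, set to 0 at the day 1 mean), with day 3 rats left of day 1 rats and black lines for means. Cyba lies 0.84 higher at day 3. The days overlap for Cybb, Ncf1 and Rac2, and only slightly for Ncf4.

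Markers of neutrophils mostly fell, and markers of macrophages mostly rose. Of 11 tested neutrophil genes, 8 fell and 1, Lcn2, rose (median change -1.97), and the summed intensity of the 14 with a probe was 23165 to 32630 units at day 3 and 34792 to 41017 units at day 1. Lcn2 was the brightest of these genes at day 3, with a log2 signal of 14.31 ± 0.44, against 12.94 ± 0.61 at day 1 (SD, n = 3). The day 3 sums thus rest largely on the gene that rose, and they understate the fall of the others. Retnlg, which rodent neutrophils secrete, fell by 3.16 log2 units, and Mmp8, the neutrophil collagenase, fell by 2.56. Ctsg, S100a9 and Ngp lay at or below the array median on all 6 arrays, so these defining markers said nothing. Lcn2 had limma adjusted p = 0.023, and 0.0801, 0.0659, 0.0783 and 0.0833 without rats 1, 2, 6 and 7 in turn. Relative to the mean of the 11 neutrophil genes, Cybb, Ncf1, Ncf4 and Rac2 changed by 0.14, -0.01, -0.19 and 0.18 log2 units, with overlap of the days for each (exact permutation p between 0.2 and 1.0). The mean of the 11 itself changed by -1.44, a smaller fall than their median. It holds Lcn2, which rose, and Prtn3 and Mpo, which were not called (changes of -0.06 and 0.14). A comparison of the members with only the 8 neutrophil genes that fell was not made.

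Of 7 tested macrophage genes, 5 rose and 0 fell (median change 1.62), with a summed intensity of the 8 with a probe of 17872 to 30773 units at day 3 and 4019 to 12263 units at day 1. The count was 1, 2, 1 and 1 without rats 1, 2, 6 and 7 in turn. C1qa and C1qc, chains of complement C1q, rose by 2.44 and 2.42. C1qa had limma adjusted p = 0.0533, 0.0539 and 0.0523 without rats 1, 6 and 7 in turn, and C1qc had 0.0693, 0.0542, 0.0708 and 0.0706 without rats 1, 2, 6 and 7 in turn. The change of C1qc was 3.09 without day 1 rat 3. Adgre1, a surface receptor of rodent macrophages, had a change of 0.09 (limma adjusted p = 0.827).

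Marker genes of fibroblasts, endothelium and smooth muscle mostly rose at day 3, and few marker genes of lymphocytes, platelets and red cells, adipocytes or skeletal muscle were called. Of 11 fibroblast genes 11 rose, and Col1a1 and Lum, a collagen chain and a collagen-binding proteoglycan, rose by 5.15 and 4.74 log2 units (5.49 for Lum without day 1 rat 3). Of 7 endothelial genes 6 rose (3, 2, 3 and 2 without rats 1, 6, 4 and 7 in turn), and of 4 smooth muscle genes 3 rose. Among 8 lymphocyte and NK cell genes, 1 was higher and 1 lower (1 lower and 0 higher without rats 1, 6 and 7 in turn). Of 5 platelet and red cell genes 1 fell (3 without day 1 rat 3), and of 5 adipocyte genes 0 moved in limma (1 without day 1 rat 3 or with array weights; 0 had an unadjusted p under 0.05). Skeletal muscle genes were bright on 1 array of each day, with summed intensities of 25632 units in day 3 rat 6 and 32521 units in day 1 rat 3 against 1135 to 2957 units on the other 4, and 1 of 7 fell (0 without day 1 rat 1). Without these 2 arrays, Cybb, Ncf1, Ncf4 and Rac2 changed by -1.12, -1.52, -1.59 and -1.28, and each was still called lower.

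**Figure D4:**
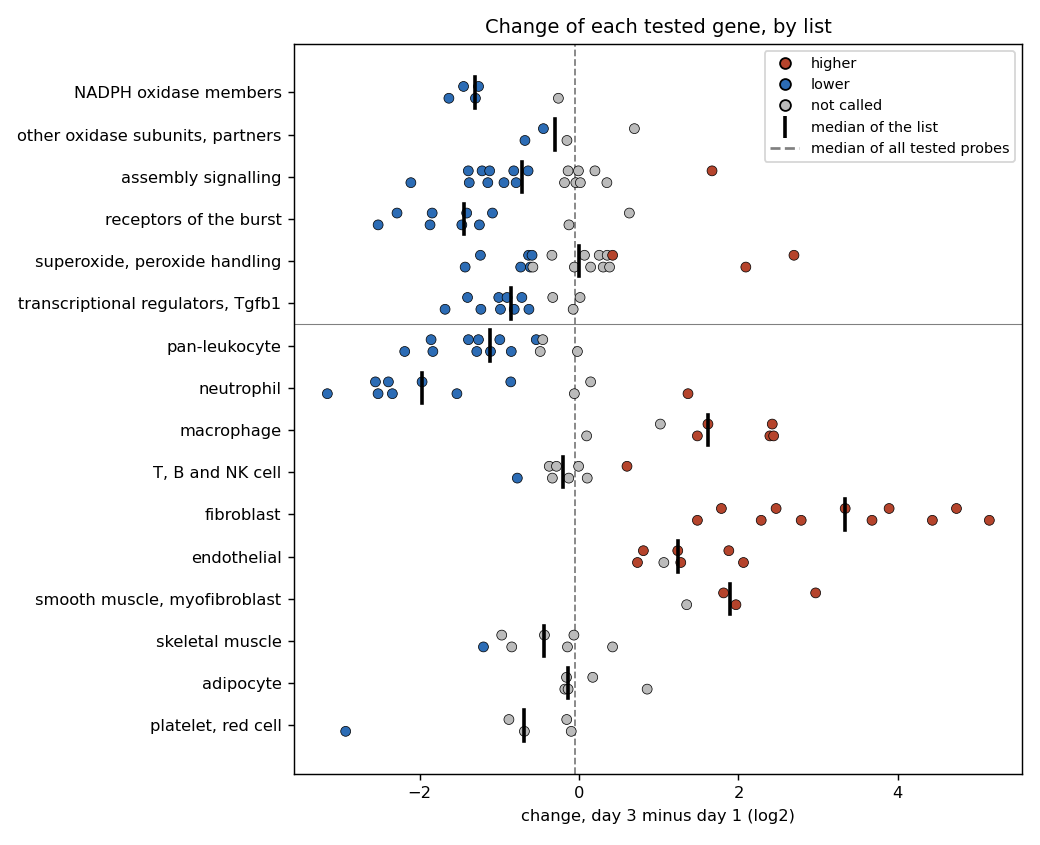
Change of each tested gene on the log2 scale (x axis, day 3 minus day 1) in the member, pathway and marker lists (rows), coloured by call, with the median of each list as a black line and the median of all tested probes, -0.05, as a dashed line. The phagocyte oxidase genes other than Cyba lie among the falling pan-leukocyte and neutrophil genes, and the tested fibroblast and endothelial genes lie above 0.

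Of the other subunits and partners of NADPH oxidases, 16 were listed and 4 tested, of which 2 fell and 0 rose. Rac1, the widely expressed GTPase that can take the place of Rac2 in macrophages, fell by 0.68 log2 units (limma adjusted p = 0.00711). Rap1a, a small GTPase found with the membrane core, fell by 0.45 (limma adjusted p = 0.0399), but had adjusted p = 0.111, 0.0887, 0.116, 0.129 and 0.0848 without rats 1, 2, 6, 4 and 7 in turn, so the count was then 1. It had adjusted p = 0.0517 with offset 16, 0.0719 with an intensity trend and 0.054 with cyclic loess. Poldip2, a partner of Nox4, had a change of 0.69 (limma adjusted p = 0.104), but was called higher without day 1 rat 3 (change 0.96, adjusted p = 0.0147), with array weights (adjusted p = 0.0139) and without both day 1 rat 3 and day 3 rat 6 (adjusted p = 0.0342). Nox3, Noxo1, Duox2 and Sh3pxd2a had probes at or below the array median on all 6 arrays, and 7 other listed genes were not analysed here.

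Signalling genes that act on assembly of the enzyme fell in the main: 10 of 18 tested fell and 1 rose (median change -0.72), and 6 fell and 1 rose without day 3 rat 6. Fgr, a Src-family kinase of myeloid cells, fell by 2.11 log2 units, and it had 10.23 ± 0.23 at day 3 and 12.34 ± 0.42 at day 1 (SD, n = 3; limma adjusted p = 0.00155). Vav1, an exchange factor that loads Rac with GTP in blood cells, fell by 1.38 (adjusted p = 0.00121). Prkcd, a protein kinase C that phosphorylates p47phox, fell by 1.39 (adjusted p = 0.0124, and 0.0501 without day 3 rat 6). Prkcz, an atypical protein kinase C, was the gene that rose, by 1.67, with 8.35 ± 0.28 at day 3 and 6.68 ± 0.49 at day 1 (limma adjusted p = 0.00482). It was above the array median on only 1 day 1 array, with 6.41 and 6.39 in day 1 rats 1 and 2, so the size of its rise is uncertain. When every array had to lie above its median, 0 genes of this list were called higher. Prkcb and Prkca had changes of 0.02 and -0.01 (limma adjusted p = 0.964 and 0.967).

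Listed receptors that act on the burst, whether or not they trigger it, mostly fell too. Of 10 tested, 8 fell and 0 rose (median change -1.44). Ltb4r, a leukotriene B4 receptor, fell by 2.52 log2 units, and Clec7a (Dectin-1), which recognises fungal glucans, fell by 2.29. Itgam, the CD11b chain of complement receptor 3, fell by 1.87 and Fcgr2b by 1.84. Fcgr3a had a change of 0.63 (limma adjusted p = 0.493) with no settled direction, since it was 1.35 and -0.06 without rats 1 and 2 in turn and -0.53 with array weights. Tnfrsf1a had a change of -0.13 (limma adjusted p = 0.584).

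Of 12 tested regulators of oxidase genes, 9 fell and 0 rose (median change -0.86). Spi1 itself fell by 1.68 log2 units, to 8.89 ± 0.23 at day 3, against 10.57 ± 0.35 at day 1 (SD, n = 3; limma adjusted p = 0.00214), and Nfkb1 fell by 1.40. Cebpe, a factor of granulocyte maturation, fell by 1.23. Irf8 and Runx1 had changes of -0.33 and 0.01 (limma adjusted p = 0.172 and 0.955). Tgfb1, which induces Nox4 in fibroblasts, fell by 1.01.

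Genes that handle superoxide and peroxide, or that belong to the wider antioxidant response, were called in both directions. Of 18 tested, 6 fell and 3 rose (median change 0.00), beside the 15.2% of all tested probes called lower and 16.7% called higher, and the 9 calls became counts of 3, 5, 3 and 4 without rats 1, 2, 6 and 4 in turn. Gpx3 and Sod3, which are secreted, rose by 2.70 and 2.09 log2 units. Gpx3 had limma adjusted p = 0.0158, and 0.0604, 0.06 and 0.0506 without rats 1, 6 and 4 in turn. Its change was 3.48 without day 1 rat 3. Sod3 had limma adjusted p = 0.0393, and 0.12, 0.109, 0.127, 0.0581 and 0.112 without rats 1, 2, 6, 4 and 7 in turn, with a change of 2.83 without day 1 rat 3 and an adjusted p of 0.0717 with no filter. The genes that fell were Sod2, Prdx5, Txnrd1, Hmox1, Nqo1 and Gclc, of which Sod2 and the peroxiredoxin Prdx5 encode enzymes that act on superoxide or peroxide themselves, while Txnrd1 reduces thioredoxin, Hmox1 breaks down heme, Nqo1 reduces quinones and Gclc makes a glutathione precursor. Sod2, the mitochondrial dismutase that inflammatory signals induce, fell by 1.43, and Nqo1, a target of Nfe2l2, fell by 1.24. Mpo, whose product turns peroxide into hypochlorous acid in neutrophils, had 7.11 ± 0.30 at day 3 and 6.97 ± 0.10 at day 1 (SD, n = 3; limma adjusted p = 0.547).

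Ncf4 and Rac2 lie near each other on chromosome 7 of the GRCr8 assembly, with 9 protein-coding genes between them. Of these 3 were tested, and none of the 3 fell. Another 2 missed the filter, and 4, among them Csf2rb and Il2rb, had no named probe, so their changes are not known. Mpst, a sulfurtransferase, rose by 0.63 log2 units (limma adjusted p = 0.00812). C1qtnf6 was at least 1.60-fold higher at day 3, being at or below the array median on all day 1 arrays (limma adjusted p = 0.0166, and 0.0609 without day 1 rat 1). Tst had a change of -0.02 (limma adjusted p = 0.951).

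The profile of Cybb over the 6 arrays was compared with those of 8350 other named tested genes, as the root mean square difference between log2 profiles, each centred on its own mean. The nearest were Tmem37, Lypd8l1, Ms4a6a, Ccr2 and RT1-DMa, at 0.12, 0.13, 0.16, 0.18 and 0.20 log2 units. Genes near Cybb, and those near Nox4 below, were picked by their profiles on these same 6 arrays. That their changes resemble those of Cybb or Nox4 follows from this choice. Ccr2, the receptor of monocyte chemoattractants, fell by 1.36 and RT1-DMa, an MHC class II chaperone chain, fell by 1.39. Tmem37 fell by 1.18 and Ms4a6a by 1.16 (limma adjusted p = 0.013 for Ms4a6a, and 0.0529 and 0.0546 without day 1 rat 1 and day 3 rat 6). Lypd8l1 fell by 1.06 (limma adjusted p = 0.0262, and 0.0891, 0.0889 and 0.0858 without rats 1, 6 and 4 in turn). The profile of Nox4 spanned only 0.31 log2 units, and the nearest genes, Gfm1, Ints14, Fbxl4, Lgals8 and Phf14, at 0.03 to 0.04, were likewise nearly flat and not called (limma adjusted p between 0.151 and 0.425).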

How the data were processed

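Total RNA of 6 implants from 6 rats was amplified and biotinylated for bead arrays, per the labels' protocols. The table the authors deposited holds intensity values on a linear scale for 22517 probes. Limma, without a version, is named in the submitters' processing notes. After sorting, the arrays agree to within 0.5346 units, so these intensity values, as deposited, were already quantile normalized. A background step by the authors is not given. A second deposited table holds 12 columns of per-sample values whose headers match no label; these were not used, so no detection p-value entered.

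Limma 3.58.1 (R 4.3.3) applied normexp with offset 50 before log2; the offset understates changes of dim probes. Of 22517 probes, 11591 were above the array median on at least 3 arrays and were fitted together with lmFit and eBayes (two-sided, Benjamini-Hochberg, threshold 0.05). Each limma p-value sets the difference of the days against the spread between rats of 1 day, moderated over all tested probes. With 1 implant and 1 array per rat, that spread also holds technical variation. Where a gene was dim at 1 day, its fold is a bound against the array median. The platform annotation gives 13787 of the 22517 probes 1 symbol, and all 6 members matched the GRCr8 table by Entrez identifier. The 5 pathway lists, 10 marker lists and the members were chosen with earlier results of these data known. For a gene with several tested probes, the brightest stood for it. The naming rule took from each list the 2 called genes with the largest absolute change, or the gene with the smallest p, and for Cybb and Nox4 the 5 nearest profiles; its genes in 5 lists of other cell types are given as counts, and other genes were chosen as examples after their values were seen. The genes between Ncf4 and Rac2 were added after seeing the files. The fit was tested on simulated data. Alternatives were other background steps, filters, weights, variance priors, normalization and thresholds, and leaving out rats.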

Additional observations from a re-analysis of the deposited data

How the results depend on the processing

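With other settings for background, filter, weights, variance prior, normalization and threshold, and without any 1 rat, Cybb, Ncf1, Ncf4 and Rac2 were called lower each time. Without 1 rat the log2 change ran from -1.53 to -1.14 for Cybb, -1.71 to -1.20 for Ncf1, -1.70 to -1.52 for Ncf4 and -1.32 to -1.23 for Rac2. Cyba was called lower with array weights (-0.36) and cyclic loess (-0.42) only, and its change ran from -0.35 to -0.19 without 1 rat. Nox4 was dim, near the array median, and its difference, with no call, ran from 0.13 to 0.22 without 1 rat. The count of changed probes was 6123 with array weights, 1593 at an adjusted p under 0.01, and 2016 to 4902 without 1 rat.

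Called genes in the list of other oxidase subunits numbered 1 with offset 16, with an intensity trend, with cyclic loess and at 0.01, and 1 to 3 without 1 rat. At 0.01 the counts were 6 for assembly signalling, 3 for superoxide and peroxide handling, 1 for macrophage, 6 for pan-leukocyte, 1 for T, B and NK cell, 2 for endothelial and 0 for skeletal muscle genes. Array weights gave 14 superoxide and peroxide handling, 1 adipocyte and 3 platelet and red cell genes. With no filter 3 macrophage genes were called, and when every array had to lie above its median 1 T, B and NK cell and 0 platelet genes. Without the arrays rich in muscle signal (day 3 rat 6 and day 1 rat 3) the counts were 1 T, B and NK cell, 2 skeletal muscle, 1 adipocyte and 3 platelet genes. Without 1 rat the counts ran from 7 to 11 for assembly signalling, 3 to 11 for superoxide and peroxide handling, 1 to 6 for macrophage, 7 to 10 for pan-leukocyte, 1 to 3 for T, B and NK cell, 2 to 7 for endothelial, 0 to 1 for skeletal muscle, 0 to 1 for adipocyte and 1 to 3 for platelet and red cell genes.

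Set against the neutrophil list in place of the pan-leukocyte list, the relative changes were 1.18 for Cyba, -0.0060 for Ncf1, -0.19 for Ncf4 and 0.18 for Rac2. Against the macrophage list, chosen after seeing the data, they were -2.94 for Cybb, -1.90 for Cyba, -3.09 for Ncf1, -3.27 for Ncf4 and -2.90 for Rac2. Among named genes that were not called, Adgre1, Prkcb, Prkca, Runx1, Mpo, Prtn3, Fcgr3a, Tnfrsf1a and Tst changed sign in at least 1 fit that left out a rat. No paired analysis was possible because the rats of the 2 days carry different numbers. The cause of these shifts was not tested.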
